A study of Mus musculus with 25 samples.

Results

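Glutathione S-transferases were measured at the mRNA level in mouse heart, as 10 genes chosen by name: Gsta1, Gsta2, Gsta3 and Gsta4 of the alpha class, Gstm1, Gstm2 and Gstm5 of the mu class, Gstp1 of the pi class, Gstk1 of the kappa class and the membrane-bound Mgst1. The level of each gene was the sum over its transcripts, and the 10 genes were among 35969 genes with a sum in the same table. Left ventricle from 25 male mice was sequenced as polyadenylated RNA, 5 mice in each of 5 groups. GPx4+/- mice have 1 intact copy of Gpx4, whose product reduces phospholipid hydroperoxides with glutathione, and WT mice were their littermates on a C57BL6/J background. From 8 to 10 weeks of age the mice received a control diet (CNTL) or a diet high in fat, sucrose and cholesterol (HFHS) for 16 weeks. The WT groups were WT CNTL, WT HFHS and WT HFHS + Carnosine, the last of which drank carnosine at 80 mM from week 7 of the diet, and the others were GPx4+/- CNTL and GPx4+/- HFHS. Mice were fasted and given dextrose or saline before tissue was taken, and the labels do not say which mouse received which. GPx4+/- mice given carnosine were not analysed here.

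Glutathione S-transferases join the thiol of glutathione to electrophiles, among them the reactive aldehydes left by lipid peroxidation such as 4-hydroxynonenal. The soluble classes act in the cytosol, Gstk1 belongs to mitochondria and peroxisomes, and Mgst1 sits in the endoplasmic reticulum and outer mitochondrial membrane and also reduces lipid hydroperoxides. In many tissues several family members are targets of the transcription factor Nrf2. The study asked how HFHS diet, loss of a Gpx4 allele and carnosine, a dipeptide that traps such aldehydes, act on the heart.

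Levels are given as scaled TPM, the deposited TPM (a transcript's share of all transcripts) after division by a factor per library that brings the median gene to a common level. TPM is corrected for transcript length, so levels can be set side by side between genes, and it keeps no read depth, so no counting error is given. Each library had between 11652 and 12305 genes at 1 TPM or more, and mitochondrial transcripts took between 31.3% and 48.7% of its TPM. Gpx4 lay between 251 and 383 scaled TPM in the 10 GPx4+/- mice and between 591 and 778 in the 15 WT mice, as their labels say. Cardiomyocyte markers dominated in every library, with a summed level of 6 genes between 36421 and 45262. A few mice stood apart by markers of other tissue, which the left ventricle should hold little of. Summed over 12 hepatocyte markers, the level was 1674 in GPx4+/- CNTL replicate 2, 175 in GPx4+/- HFHS replicate 1, 117 in GPx4+/- HFHS replicate 3 and between 17.3 and 66.8 in the other 22. Summed over 6 atrial markers it was 7443 in GPx4+/- CNTL replicate 1, 4638 in WT CNTL replicate 3, 2729 in GPx4+/- HFHS replicate 4, 1500 in GPx4+/- CNTL replicate 2, 595 in WT HFHS + Carnosine replicate 2 and at most 280.3 elsewhere. Summed over 5 smooth muscle markers it was 528 in WT HFHS replicate 4 and at most 249.9 elsewhere. Values without these mice are given beside some results, and not for every result that moved.

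Of the alpha-class genes on chromosome 9, Gsta1, Gsta2 and Gm3776 are near copies of each other, whereas Gsta4 is not. Reads from stretches that the copies share cannot be assigned to 1 gene with certainty. The first 60 coding bases of the most abundant transcripts are therefore shown, with those of Gsta3 and Gsta4 beside them. Capitals mark bases that differ from Gsta1.
Gsta1: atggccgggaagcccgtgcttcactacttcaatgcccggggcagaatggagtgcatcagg
Gsta2: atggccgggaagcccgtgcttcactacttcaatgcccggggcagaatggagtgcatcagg
Gm3776: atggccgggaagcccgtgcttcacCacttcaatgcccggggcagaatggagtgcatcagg
Gsta3: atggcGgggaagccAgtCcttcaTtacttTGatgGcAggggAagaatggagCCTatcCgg
Gsta4: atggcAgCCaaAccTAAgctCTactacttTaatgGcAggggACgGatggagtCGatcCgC
Gsta1 and Gsta2 were identical over this stretch, the predicted gene Gm3776 differed at 1 base, Gsta3 at 13 and Gsta4 at 19. Over the whole coding sequence of 672 bases, Gm3776 differed from Gsta1 at 2 bases. Of the 31-base words in the main Gsta1 transcript, 92.2% also occurred in transcripts of other genes, 87.8% in Gm3776 and 55.5% in Gsta2. The share was 75.6% for Gsta2, 67.5% for Gstp1, where every shared word was held by Gstp2, 34.3% for Gstm1, 19.5% for Gstm2 and 16.2% for Gstm5. It was 1.74% for Gsta3, 1.56% for Gstk1 and 0% for Gsta4 and Mgst1, so these 4 are the members least open to this doubt.

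The genes lie in a few clusters of the GRCm38 build, and all 10 are annotated as protein coding. Gsta4 (chr9:78182774-78209349), Gsta1 (chr9:78230656-78242684) and Gsta2 (chr9:78331018-78355788) are neighbours on chromosome 9. Gstm5 (chr3:107895821-107898686), Gstm2 (chr3:107981702-107986453) and Gstm1 (chr3:108012255-108017973) are neighbours on chromosome 3. Gsta3 (chr1:21240589-21265661), Gstp1 (chr19:4035407-4037985), Gstk1 (chr6:42245935-42250447) and Mgst1 (chr6:138140316-138156755) stand elsewhere.

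The heart expressed these genes over a wide range of levels. Over the 25 mice the mean scaled TPM was 224 ± 23.0 (SD, n = 25) for Gstm1, the most abundant, and 95.9 ± 13.2 for Gstm2. Gstp1 followed at 85.4 ± 7.15, Gsta4 at 83.0 ± 13.6, Gstk1 at 76.7 ± 9.23, Mgst1 at 66.1 ± 9.14 and Gstm5 at 42.9 ± 4.44. The other alpha-class genes were far lower, at 12.4 ± 5.71 for Gsta3, 5.65 ± 2.31 for Gsta1 and 1.18 ± 0.589 for Gsta2. Gstm1 was above Gstm2 in 25 of 25 mice, and the steps from Mgst1 down to Gsta2 held in at least 24 of 25. The order within the middle was less fixed, because Gstm2 was above Gstp1 in 19 mice, Gstp1 above Gsta4 in 14, Gsta4 above Gstk1 in 17 and Gstk1 above Mgst1 in 22. Gstm1 alone made up between 28.7% and 35.2% of the summed level of the 10 genes. In WT mice that sum was 663 ± 20.6 on CNTL, 715 ± 67.4 on HFHS and 696 ± 77.2 on HFHS with carnosine, and in GPx4+/- mice 708 ± 71.9 on CNTL and 683 ± 57.9 on HFHS (SD, n = 5 mice each).

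**Figure D1:**
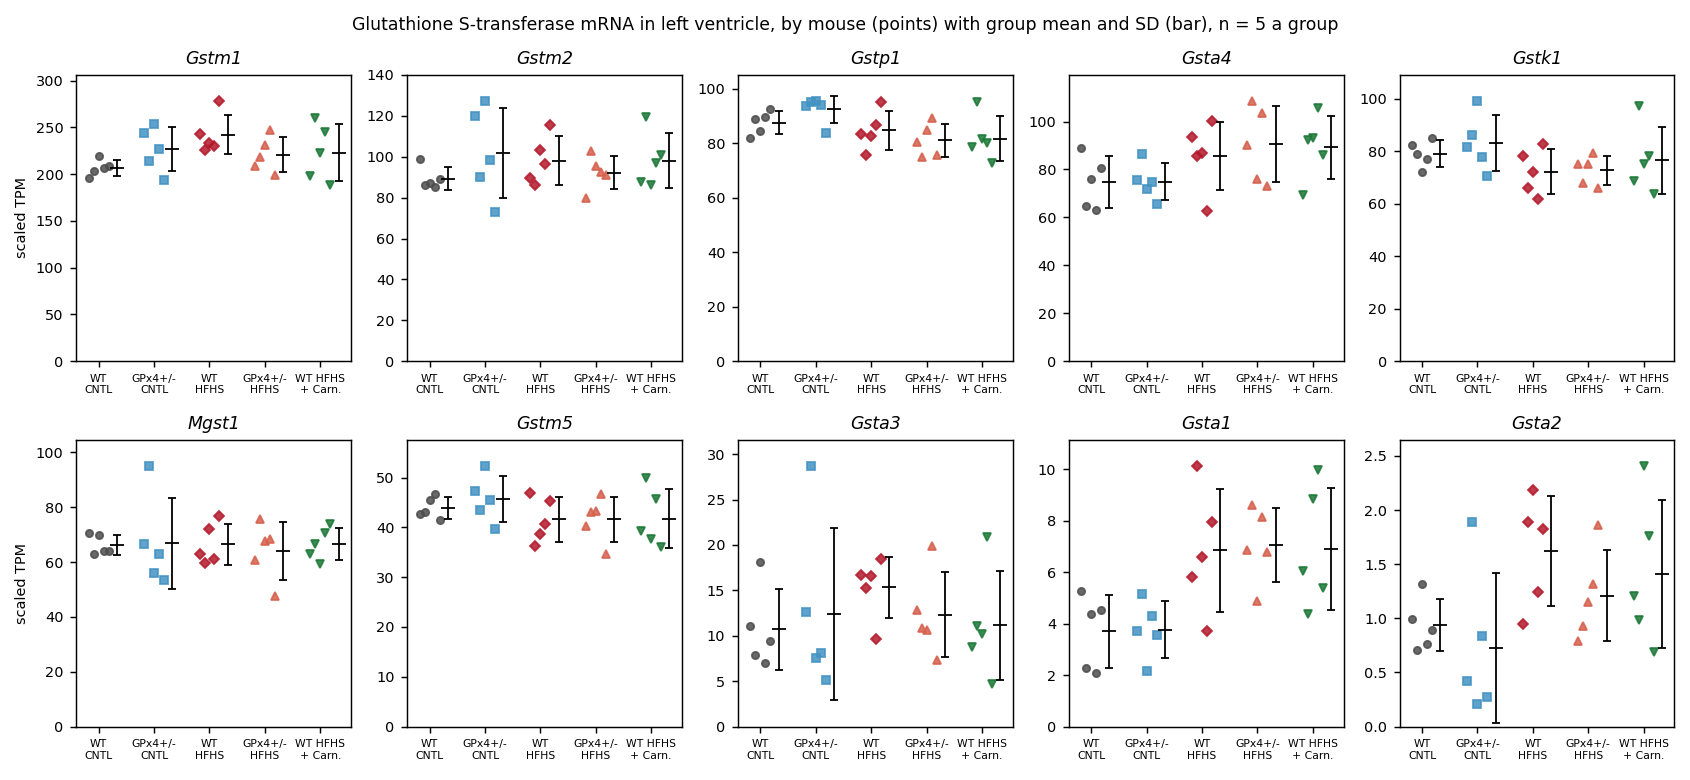
Scaled TPM (linear axes from 0) of each of the 10 genes in every mouse, ordered by mean level, with the group mean and SD as a bar beside the 5 points. Gsta1 stands higher in the HFHS groups than on CNTL, while the abundant Gstm1, Gstm2, Gstp1 and Gstk1 have group ranges that mostly overlap.

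For most members 1 transcript carried the gene. It held 99.9% of the level of Gsta4, 99.3% of Gstm5, 98.9% of Gstk1, 98.6% of Gstm2, 96.7% of Gstp1, 94.3% of Gstm1 and 87.2% of Gsta1. Gsta3 was split, with 47.0% in its most abundant transcript and 38.99% in the next. Mgst1 had 66.9% in its most abundant transcript, and Gsta2 67.7%.

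Gsta1, whose product has both transferase and glutathione peroxidase activity in the alpha class, was the member that passed the test for diet, on reads largely shared with its near copies. Its scaled TPM was 5.25, 2.29, 4.37, 2.08 and 4.51 in WT CNTL replicates 1 to 5, and 5.83, 10.1, 6.59, 3.72 and 7.96 in WT HFHS. In GPx4+/- mice it was 3.71, 5.14, 2.14, 4.31 and 3.55 on CNTL, and 6.84, 8.60, 4.87, 8.13 and 6.79 on HFHS. Thus 8 of 10 HFHS mice were above all 10 CNTL mice, and the 2 others lay within the CNTL range. Group means were 3.70 ± 1.42 and 6.84 ± 2.39 in WT and 3.77 ± 1.102 and 7.05 ± 1.45 in GPx4+/- (SD, n = 5 mice each). Over both genotypes HFHS exceeded CNTL by 0.83 on the log2 scale (95% interval 0.45 to 1.21, adjusted p = 0.00816 by limma over 11984 genes), and a two-sided exact permutation test within genotypes gave p = 0.00063. It was 0.82 in WT (adjusted p = 0.118) and 0.84 in GPx4+/- (adjusted p = 0.0789) by limma, so neither genotype alone passed the threshold of 0.05. The diet effect differed between the genotypes by 0.03 on the log2 scale (95% interval -0.74 to 0.79), and by between -0.31 and 0.60 over its alternatives. In bulk tissue a change in the number of cells of a type cannot be told apart from a change in RNA per cell. On HFHS the summed cardiomyocyte markers ranged from 36421 to 42914 against 39094 to 45262 on CNTL, and the 6 endothelial markers from 263 to 309 against 226 to 289, and their part in this result was not tested. Without the 3 GPx4+/- mice with raised hepatocyte genes the log2 fold change of Gsta1 was 0.97 (adjusted p = 0.0114 from limma), and without the 5 mice with atrial genes 0.92 (adjusted p = 0.0196).

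Over both genotypes Gsta1 was 1 of 10 members with an adjusted p under 0.05 from limma, against 8.33% of all 11984 genes tested in the same comparison. Of these, 5 members (Gsta1, Gsta2, Gsta4, Gstp1 and Gstk1) had an unadjusted p under 0.05, as did 24.5% of all genes. Within WT 0 of 10 were called and 2 had an unadjusted p under 0.05, where 1.18% of all genes were called and 16.5% had such a p. Within GPx4+/- 0 of 10 were called and 4 had an unadjusted p under 0.05, where 3.34% of all genes were called and 18.3% had such a p. The median log2 fold change of the members over both genotypes was 0.05, and that of all genes tested was -0.0024. The WT and GPx4+/- comparisons use different mice, and the comparison over both genotypes contains both, so it is not a further experiment.

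**Figure D2:**
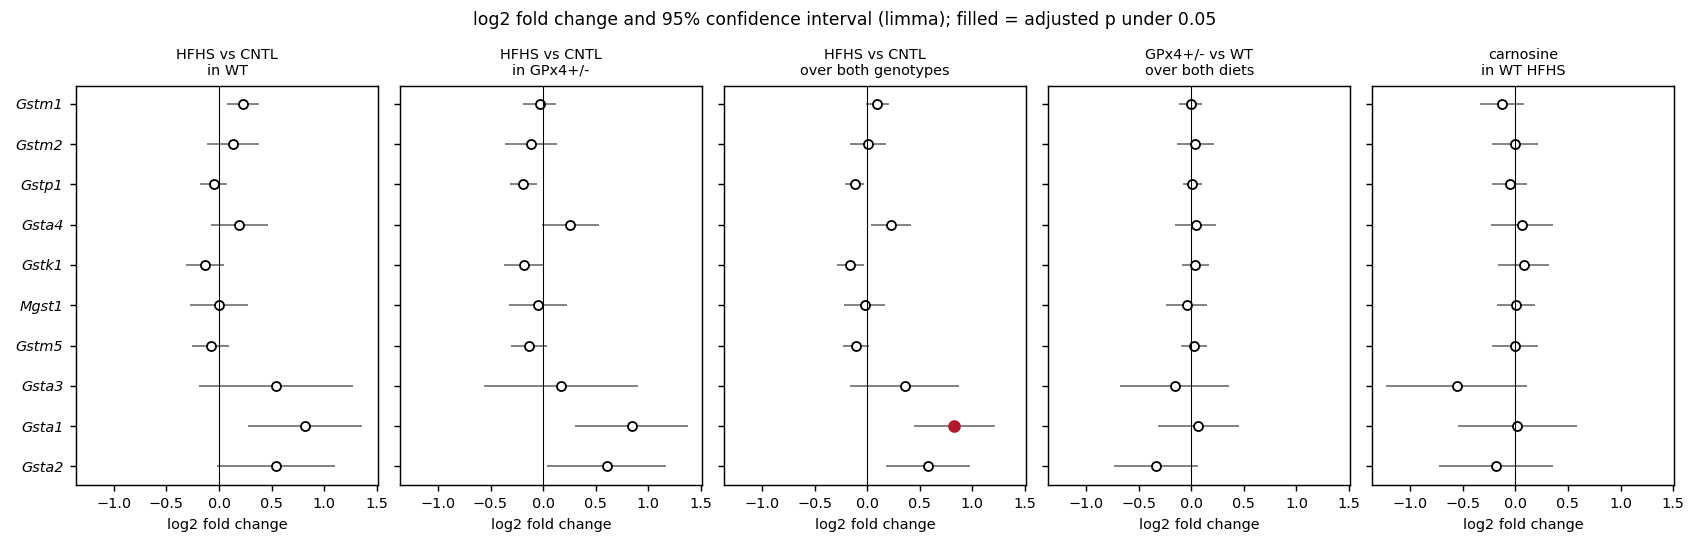
Log2 fold change of each gene with its 95% confidence interval from limma in 5 comparisons, with open symbols where the adjusted p was 0.05 or more. Only Gsta1 over both genotypes, at 0.83, is filled.

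Because of the shared reads, Gsta1 was also summed with its near copies. Gm3776 alone rose by 0.63 over both genotypes (adjusted p = 0.0377 from limma). Its scaled TPM was 3.73, 2.83, 3.79, 3.71 and 4.51 in WT CNTL and 4.42, 6.32, 5.59, 3.93 and 4.60 in WT HFHS. It was 2.87, 3.75, 1.23, 3.38 and 2.00 in GPx4+/- CNTL and 4.01, 8.60, 2.40, 6.09 and 6.30 in GPx4+/- HFHS, where 4 of 5 HFHS mice were above all 5 CNTL mice. Summed over Gsta1, Gsta2, Gm3776, Gm10639 and Gm8074, the last of which is listed at 0 throughout, the rise was 0.74 on the log2 scale over both genotypes (adjusted p = 0.00582 from limma). The same sum gave 0.87 in GPx4+/- (adjusted p = 0.0334) and 0.61 in WT (adjusted p = 0.166). Which of the copies carried the rise cannot be told apart from these values.

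**Figure D3:**
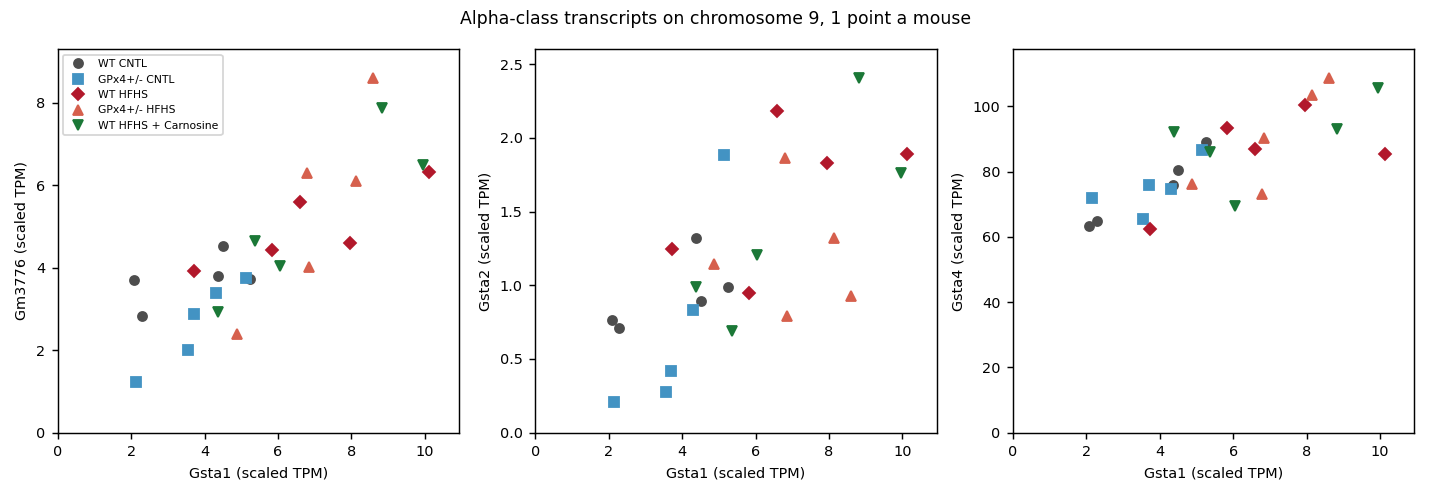
Scaled TPM of Gm3776, Gsta2 and Gsta4 against that of Gsta1 (linear axes), 1 point a mouse and 1 symbol a group. The points of Gm3776 and Gsta4 climb with Gsta1, and most HFHS mice lie to the right of the CNTL mice.

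The upstream sequence of Gsta1 is shown beside that of Gm3776 because the sum over the 5 near copies, both genes included, rose on HFHS, as 250 bases 5′ of the Gsta1 start in the RefSeq promoter set (GRCm38.p6, plus strand) and the matching bases of Gm3776. Capitals mark the bases that differ between the 2 sequences. The Gsta1 stretch is chr9:78230419-78230668 and the Gm3776 stretch chr9:78256892-78257141.
Gsta1: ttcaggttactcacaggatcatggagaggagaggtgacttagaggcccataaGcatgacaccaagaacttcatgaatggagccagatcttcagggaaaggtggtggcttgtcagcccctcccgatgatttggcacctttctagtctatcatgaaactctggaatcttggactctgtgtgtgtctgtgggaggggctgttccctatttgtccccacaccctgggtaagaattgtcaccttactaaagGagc
Gm3776: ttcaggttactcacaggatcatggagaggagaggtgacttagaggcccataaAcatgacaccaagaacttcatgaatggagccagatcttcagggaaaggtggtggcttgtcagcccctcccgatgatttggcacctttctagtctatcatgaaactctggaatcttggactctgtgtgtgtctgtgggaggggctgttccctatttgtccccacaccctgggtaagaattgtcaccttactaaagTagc
The pair differed at 2 of 250 bases. The core of the antioxidant response element, to which Nrf2 binds, was searched as TGACNNNGC on both strands in windows of 300 bases (250 before and 50 after the start). It occurred in 12.4% of all 32851 windows. Of the 11 windows found for 9 members (none for Gsta4), 3 held it, those of Gsta3, Gstm5 and Mgst1, and these are shown on the gene's strand with the match in capitals.
Gsta3 (chr1:21240444-21240492): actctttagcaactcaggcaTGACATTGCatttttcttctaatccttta
Gstm5 (chr3:107895792-107895840): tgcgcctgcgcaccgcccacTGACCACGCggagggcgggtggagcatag
Mgst1 (chr6:138140451-138140499): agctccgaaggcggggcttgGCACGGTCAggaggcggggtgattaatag
The match began 121 bases before the start in Gsta3, 42 in Gstm5 and 56 in Mgst1, where it lies on the opposite strand. None of these 3 genes passed the test for diet. A match describes the letters only, and windows without one, Gsta1 among them, say nothing of sites elsewhere.

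Gsta2 encodes a second alpha-class subunit of the same type and was the lowest member, near 1 scaled TPM. It was 0.989, 0.708, 1.32, 0.766 and 0.893 in WT CNTL and 0.945, 1.89, 2.18, 1.25 and 1.83 in WT HFHS. On the GPx4+/- background it was 0.418, 1.89, 0.206, 0.833 and 0.273 on CNTL and 0.791, 0.924, 1.15, 1.32 and 1.86 on HFHS. In both genotypes the groups overlapped, and the highest GPx4+/- CNTL value came from replicate 2, the mouse with the most hepatocyte RNA. Over both genotypes the log2 fold change was 0.57 (95% interval 0.17 to 0.97, adjusted p = 0.0678 from limma). Without that 1 mouse it was 0.71 (adjusted p = 0.00739 from limma) and in GPx4+/- alone 0.89 (adjusted p = 0.029). Without WT HFHS replicate 1 it was 0.64 (adjusted p = 0.0473), without the 3 mice with raised hepatocyte genes 0.78 (adjusted p = 0.0114), and without the 5 with atrial genes 0.75 (adjusted p = 0.0174). On this scale a pseudocount of 0.5 understates changes of so low a gene.

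Gsta3, an alpha-class enzyme that also isomerizes steroids, ranged from 4.72 to 28.7 over the 25 mice. It was 11.1, 7.90, 18.2, 7.02 and 9.37 in WT CNTL and 16.7, 15.3, 16.6, 9.60 and 18.4 in WT HFHS. For GPx4+/- it was 12.6, 28.7, 7.52, 8.11 and 5.17 on CNTL and 12.8, 10.8, 10.6, 19.9 and 7.36 on HFHS. The highest mouse in each of WT CNTL, GPx4+/- CNTL and GPx4+/- HFHS (replicates 3, 2 and 4) was 1 of the 5 with atrial genes. Across the 25 mice and with group means removed, Pearson r of Gsta3 was 0.59 with the summed hepatocyte markers on log2 scales. It was 0.54 with the summed atrial markers and 0.53 with 7 adipocyte markers, whose sum was at most 25.5 scaled TPM. With the summed endothelial markers it was -0.48. These values describe points that share libraries. Over both genotypes the difference was 0.36 (95% interval -0.16 to 0.87, adjusted p = 0.404 from limma). Without the 5 mice with atrial genes it was 0.65 (adjusted p = 0.0162 from limma), the only 1 of its 31 alternatives in which Gsta3 was called. In GPx4+/- alone it was 0.17 (adjusted p = 0.851), 0.53 without GPx4+/- CNTL replicate 2 (adjusted p = 0.33 from limma), -0.07 without GPx4+/- CNTL replicate 5 and -0.02 without GPx4+/- HFHS replicate 4.

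Mgst1, the microsomal enzyme, had no such trend with diet but was also highest in GPx4+/- CNTL replicate 2. That mouse had 95.1 scaled TPM, while its 4 group mates lay between 53.5 and 66.6 and the other 20 mice between 47.4 and 76.9. The same mouse was the highest of its group in 5 of 10 members, Gsta1, Gsta2, Gsta3, Gsta4 and Mgst1. Alb, the gene for albumin, reached 736 in it, against at most 40.8 in the other 24 mice. The log2 fold change of Mgst1 with diet over both genotypes was -0.02 (95% interval -0.22 to 0.17), 0.04 without the 3 mice with raised hepatocyte genes and 0.07 without the 5 with atrial genes.

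**Figure D4:**
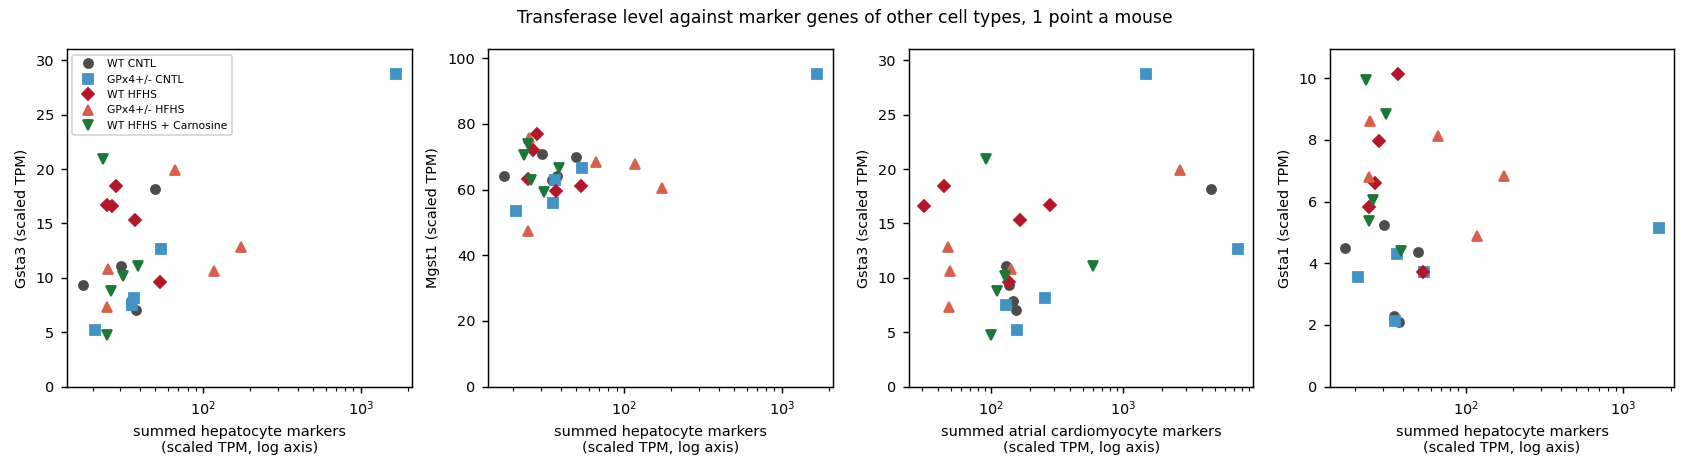
Scaled TPM of Gsta3, Mgst1 and Gsta1 against the summed hepatocyte or atrial cardiomyocyte markers (log axis), 1 point a mouse. A single GPx4+/- CNTL mouse with a hepatocyte sum of 1674 lies far right and highest for Gsta3 and Mgst1, whereas the highest Gsta1 values are in mice with low sums.

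Gsta4, the alpha-class enzyme with high activity for 4-hydroxynonenal, was far more abundant than Gsta1. It was 89.0, 65.0, 75.9, 63.3 and 80.5 in WT CNTL and 93.4, 85.5, 87.0, 62.5 and 100.3 in WT HFHS. With GPx4+/- it was 75.8, 86.6, 71.7, 74.7 and 65.4 on CNTL and 90.4, 108.7, 76.2, 103.6 and 73.3 on HFHS. Means were higher on HFHS in both genotypes, yet the groups overlapped. The log2 fold change over both genotypes was 0.23 (95% interval 0.03 to 0.42, adjusted p = 0.135 from limma), 0.19 in WT and 0.26 in GPx4+/-. Without WT HFHS replicate 4, the lowest mouse of that group and the one with high smooth muscle markers, it was 0.28 (adjusted p = 0.0441 from limma), and in WT alone 0.30 (adjusted p = 0.269). Gsta4 and Gsta1 had a Pearson r of 0.78 over the 25 mice (0.69 with group means removed), and their main transcripts share no 31-base word. With group means removed the closest pair of members was Gstm1 and Gstm5 (r = 0.86).

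Gstm1, the main mu-class enzyme, had WT groups that did not overlap between the diets. It was 196, 203, 220.0, 207 and 209 in WT CNTL and 243, 226, 234, 230.1 and 279 in WT HFHS. All 5 HFHS mice were thus above all 5 CNTL mice, and the exact permutation p was 0.00794 (two-sided), the smallest that 5 against 5 allow. Fibroblast markers, summed over 7 genes, had a median of 915 in WT CNTL and 1274 in WT HFHS, with overlapping groups. Gstm1 had a Pearson r of 0.58 with this sum over the 25 mice (0.53 with group means removed), and the part of these markers in the result was not tested. In the fit over all genes the log2 fold change was 0.22 (95% interval 0.07 to 0.38, adjusted p = 0.131 from limma), so the call did not pass. Gstm1 was 1 of 10 members without overlap in WT, where 4.51% of all genes tested had none. No member was without overlap in the other pairs of groups, where the share of all genes was 4.47% for diet in GPx4+/-, 0.926% for genotype on CNTL, 0.726% for genotype on HFHS and 0.609% for carnosine. In GPx4+/- mice Gstm1 was 244, 214, 254, 227 and 194 on CNTL and 208, 218, 231, 247 and 199.6 on HFHS, with a log2 fold change of -0.03 (adjusted p = 0.856 from limma). Without GPx4+/- CNTL replicate 3 this last value was 0.01, and without GPx4+/- HFHS replicate 5 it was 0.0014. The difference of the diet effect between genotypes was -0.26 (95% interval -0.47 to -0.04, unadjusted p = 0.0212, adjusted p = 0.681 from limma), and it did not pass over all genes. The other mu-class members, Gstm2 and Gstm5, had log2 fold changes over both genotypes of 0.01 (95% interval -0.17 to 0.18) and -0.11 (95% interval -0.23 to 0.02).

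Gstp1, the pi-class enzyme, and Gstk1, the kappa-class enzyme of mitochondria and peroxisomes, had values for diet below 0 that did not pass the test. Gstp1 was 82.0, 89.0, 84.6, 89.6 and 92.6 in WT CNTL and 83.4, 75.7, 82.5, 86.6 and 95.1 in WT HFHS. In GPx4+/- mice it was 93.5, 94.97, 95.6, 94.1 and 83.7 on CNTL and 80.4, 75.1, 84.9, 89.4 and 75.7 on HFHS, where all 5 HFHS mice lay below 4 of the 5 CNTL mice. Its log2 fold change was -0.12 over both genotypes (95% interval -0.21 to -0.03, adjusted p = 0.0891 from limma), -0.05 in WT (95% interval -0.18 to 0.08, adjusted p = 0.728) and -0.19 in GPx4+/- (adjusted p = 0.0966). Without WT HFHS replicate 5 the value over both genotypes was -0.14 (adjusted p = 0.039 from limma). With Gstp2 and Gstp3 added to Gstp1 it was -0.10 (adjusted p = 0.187). Gstk1 was 82.5, 78.8, 72.1, 76.9 and 85.02 in WT CNTL and 78.3, 65.8, 71.9, 61.9 and 82.8 in WT HFHS. It was 81.7, 86.2, 99.3, 78.0 and 70.5 in GPx4+/- CNTL and 75.2, 68.1, 74.9, 79.4 and 65.9 in GPx4+/- HFHS, and the groups overlapped in both genotypes. The log2 fold change of Gstk1 over both genotypes was -0.16 (95% interval -0.29 to -0.03, adjusted p = 0.108 from limma). Over the 25 mice Gstp1 and Gstk1 had a Pearson r of 0.77 with each other (0.76 with group means removed), and Gstp1 and Gsta1 one of -0.53 (-0.27 with group means removed). With the summed cardiomyocyte markers r was 0.49 for Gstp1, 0.53 for Gstk1 and -0.50 for Gsta1 (0.37, 0.42 and -0.16 with group means removed). With the summed endothelial markers r was -0.352, -0.565 and 0.273 in the same order (-0.199, -0.495 and -0.158 with group means removed). All are descriptions over the same 25 libraries.

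No member passed the test between genotypes. On CNTL, 0 of 10 were called by limma and 0 had an unadjusted p under 0.05, where 0.0501% of all genes were called and 6.28% had such a p, and log2 fold changes of GPx4+/- against WT ran from -0.37 for Gsta2 to 0.16 for Gstm2. Single mice moved both ends. Gsta2 was -0.65 without GPx4+/- CNTL replicate 2, the mouse with the most hepatocyte RNA, -0.21 without replicate 3 and -0.25 without replicate 5 of that group. Gstm2 was 0.10, 0.08 and 0.28 without GPx4+/- CNTL replicate 1, 3 and 5 in turn. On HFHS again 0 of 10 were called and 0 had an unadjusted p under 0.05 (0.0501% and 4.57% of all genes), with values from -0.34 for Gsta3 to 0.08 for Gsta1. Gsta3 was -0.53 without the atrial-rich GPx4+/- HFHS replicate 4 and -0.18 without GPx4+/- HFHS replicate 5. Over both diets the values ran from -0.34 for Gsta2 (95% interval -0.74 to 0.06) to 0.07 for Gsta1 (95% interval -0.31 to 0.45), with 0 called and 0 at an unadjusted p under 0.05 (0.0584% and 3.9% of all genes). The comparison on each diet shares its mice with the diet comparisons above. For Gstm1 the interval over both diets was -0.11 to 0.10, and for Gstp1 -0.08 to 0.10. Only larger changes of the average over the diets lie outside these 95% intervals. On CNTL and HFHS in turn, the 95% intervals were -0.03 to 0.28 and -0.29 to 0.02 for Gstm1. For Gstp1 they were -0.05 to 0.20 and -0.19 to 0.07. The difference of the diet effect between genotypes was called for 0 of 10 members by limma (0% of all genes), and 1 member had an unadjusted p under 0.05 (7.14% of all genes). Its values ran from -0.38 for Gsta3 to 0.07 for Gsta4. The value of Gsta3 was -0.02 without GPx4+/- CNTL replicate 2 and -0.20 without the 5 mice with atrial genes. It was -0.58 without WT CNTL replicate 3, -0.61 without GPx4+/- CNTL replicate 5 and -0.22 without GPx4+/- HFHS replicate 5.

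No member passed the test between WT HFHS + Carnosine and WT HFHS. Gsta1 was 6.05, 4.38, 8.83, 9.95 and 5.36 in WT HFHS + Carnosine, a mean of 6.91 ± 2.37 (SD, n = 5 mice) beside 6.84 ± 2.39 in WT HFHS. The log2 fold change was 0.02 (95% interval -0.55 to 0.59, adjusted p = 0.994 from limma), an interval that leaves room for a change of moderate size. Gsta3 was 8.81, 11.1, 10.1, 20.9 and 4.72 with carnosine, so that 3 of the 5 mice lay between 8.81 and 11.1, while 4 of the 5 WT HFHS mice were at 15.3 or above. Its log2 fold change was -0.56 (95% interval -1.23 to 0.12, adjusted p = 0.947 from limma), the most negative of the members, and the highest was 0.08 for Gstk1. Without WT HFHS + Carnosine replicate 5 the value of Gsta3 was -0.30, and without replicate 4 of that group -0.81. In all, 0 of 10 members were called by limma and 0 had an unadjusted p under 0.05, where 0% of all genes were called and 4.21% had such a p. This comparison shares the WT HFHS mice with the WT diet comparison.

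The genes around the transferases were read from lists of the pathway. Among 13 tested of 22 other glutathione transferases and related membrane proteins, 1 rose with HFHS over both genotypes and none fell, beside 8.33% of all genes called in that comparison. It was Alox5ap, which presents arachidonic acid for leukotriene synthesis and is a relative of Mgst1 without a known conjugating role, with a log2 fold change of 0.45 (adjusted p = 0.0187 from limma). Its call was lost without the 3 mice with raised hepatocyte genes (0.40, adjusted p = 0.0898), and its most abundant transcript alone gave 0.07 (adjusted p = 0.769). Mgst3, a membrane member with between 195 and 259 scaled TPM in the 25 mice, and Gsto1, with between 94.9 and 138, were in the range of Gstm1 and Gstm2 and were not called.

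Among 17 tested of 19 genes of glutathione synthesis and recycling, 2 rose and 2 fell over both genotypes (8.33% of all genes called). Oplah, the 5-oxoprolinase of the glutathione cycle, rose by 0.34 (adjusted p = 0.000288 from limma), and Chac2, a glutathione-degrading cyclotransferase, by 0.33 (adjusted p = 0.00733). Chac1, the stress-induced cyclotransferase, fell by 0.44 on the log2 scale (adjusted p = 0.0019 from limma), and Gclm, the modifier subunit of the ligase that limits glutathione synthesis, fell by 0.35 (adjusted p = 0.0284). The median of the 17 was 0.04. The call of Gclm was lost without any 1 of WT CNTL replicate 5, GPx4+/- CNTL replicate 1, WT HFHS replicate 4, GPx4+/- HFHS replicate 3 and GPx4+/- HFHS replicate 5 (adjusted p up to 0.0562), and the value was -0.28 without the 3 mice with raised hepatocyte genes (adjusted p = 0.119) and -0.24 without the 5 with atrial genes (adjusted p = 0.14).

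Among 10 tested of 18 genes for export and mercapturate formation, which process the conjugates that transferases make, 1 rose and 2 fell (8.33% of all genes called). Anpep, an aminopeptidase that can act on cysteinylglycine, rose by 0.51 (adjusted p = 0.0111 from limma). The aminoacylases Acy3 and Acy1 fell by 0.27 (adjusted p = 0.0252) and 0.22 (adjusted p = 0.0292) on the log2 scale. The median of the 10 was 0.05. The call of Acy1 was lost without any 1 of 7 mice, WT CNTL replicates 4 and 5, GPx4+/- CNTL replicates 4 and 5, WT HFHS replicates 3 and 4 and GPx4+/- HFHS replicate 5, where the value ran from -0.22 to -0.20, and its most abundant transcript alone gave -0.08 (adjusted p = 0.579).

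Among 17 tested of 18 genes that Nrf2 is known to drive, with Nrf2 and its inhibitor Keap1, 3 rose and 1 fell over both genotypes (8.33% of all genes called). Cat, the gene for catalase, rose by 0.27 (adjusted p = 0.00279 from limma), Aox1, an aldehyde oxidase, by 0.36 (adjusted p = 0.0205), and Nqo1, a quinone reductase, by 0.23 (adjusted p = 0.0376). The gene that fell was Gclm, already given. The median of the 17 was 0.09. In GPx4+/- mice alone Nqo1 rose by 0.44 (adjusted p = 0.0139 from limma), from a mean of 34.6 scaled TPM on CNTL to 47.1 on HFHS. In WT it was 44.2 and 44.8, a log2 fold change of 0.02 (95% interval -0.18 to 0.22), and the difference between the genotypes was 0.42 (adjusted p = 0.664 from limma). The call of Aox1 over both genotypes was lost in 3 of 31 alternatives, among them without the 3 mice with raised hepatocyte genes (0.39, adjusted p = 0.0519). The call of Nqo1 over both genotypes was lost without any 1 of 11 mice, WT CNTL replicates 1, 2, 4 and 5, GPx4+/- CNTL replicates 1 and 3, WT HFHS replicates 1, 2 and 5 and GPx4+/- HFHS replicates 2 and 5 (0.20 to 0.23).

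**Figure D5:**
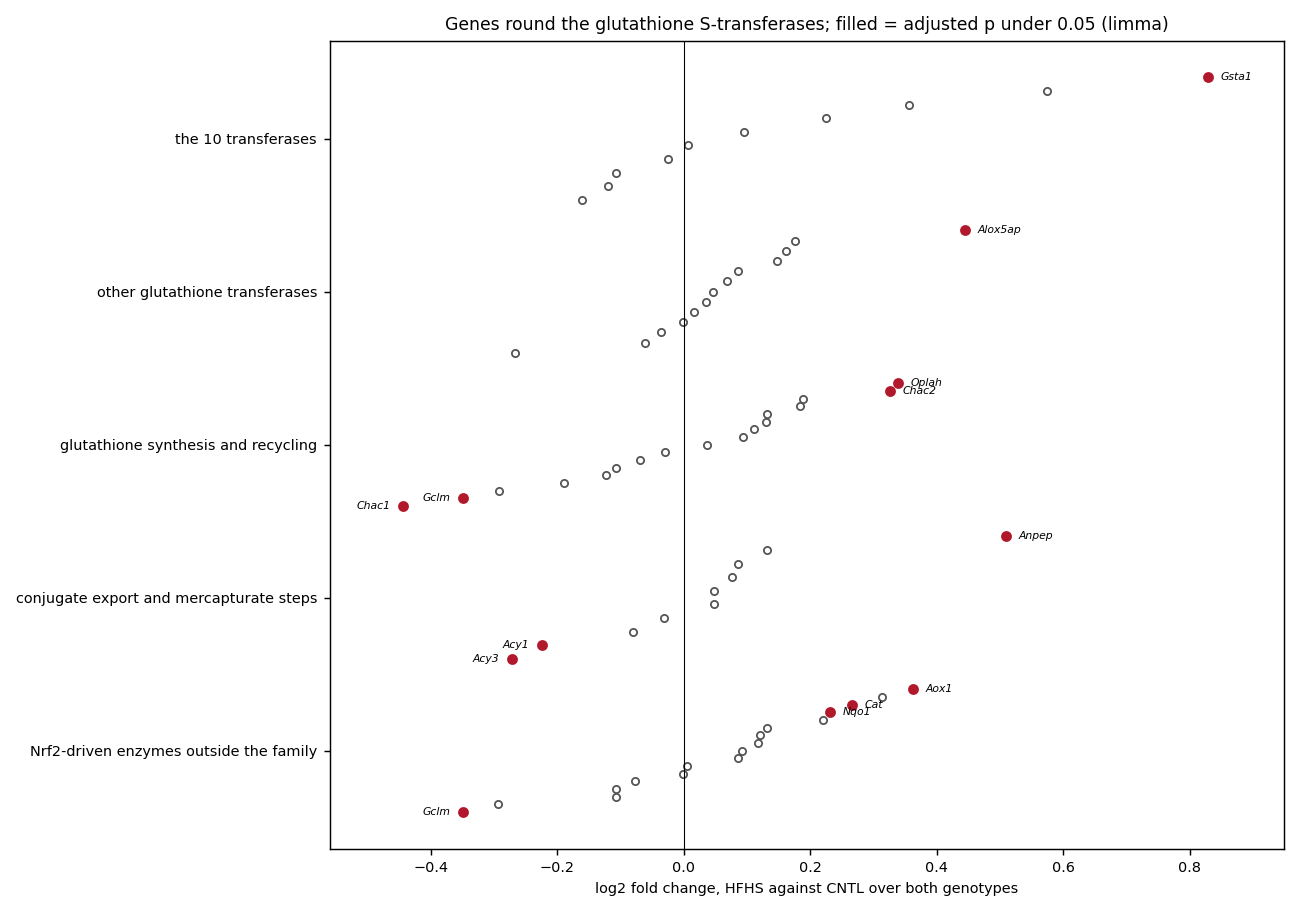
Log2 fold change of HFHS against CNTL over both genotypes for every tested gene of 5 lists, 1 symbol a gene, filled and named where the adjusted p from limma was under 0.05. Gsta1 at 0.83 lies farthest from 0, and each list holds values on both sides of 0.

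The genes most like each member in pattern were read over the 25 mice by Pearson r of log2 values, as a description. This ranking left out the members, the other listed glutathione transferases and the near copies of Gsta1. For Gsta1 they were Gm31166 (r = 0.79), Edn3 (0.78), Fam221a (0.78), Vwa7 (0.78) and Hdgf (0.77). The closest gene to Gsta3 was Aldh1a1, an aldehyde and retinal dehydrogenase (r = 0.89), to Gstm1 Selenbp1 (r = 0.84), to Gstm2 Pfkfb1 (r = 0.84), to Gstm5 Ybx1 (r = 0.86), to Gstp1 Supt4a (r = 0.83) and to Gstk1 Mccc1 (r = 0.87). For Gsta2 it was Hs3st1 (r = 0.75), for Gsta4 Etfrf1 (r = 0.78) and for Mgst1 Agt (r = 0.76).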

How the data were processed

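Left ventricular RNA of 25 mice was analysed from a table that the authors deposited as TPM per transcript and library, a unit that corrects for length and keeps no read depth. The submitters' processing notes name kallisto 0.43.1, sleuth 0.30.0 and GRCm38, whereas the methods describe STAR and DESeq2 on gene counts. Library names in the header matched each column to a mouse, since the column positions in the labels disagree with them. Replicate numbers name different mice. Of 119215 transcripts, 116772 matched GENCODE mouse release 21, and TPM were summed per gene and divided by median-ratio factors over 11879 genes (0.864 to 1.16).

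A gene entered when its scaled TPM averaged 1 or more over the 25 mice, and was tested with limma 3.58.1 (R 4.3.3, trend) on log2(scaled TPM + 0.5), with Benjamini-Hochberg adjustment over 11984 genes. All 10 members passed this filter. TPM are not counts, so limma took the place of the study's test. The 20 mice without carnosine were fitted as 4 groups and the carnosine comparison on 10 WT HFHS mice. The fit was tested on simulated data. Single members were compared by two-sided exact permutation. Sequence words of 31 bases were taken from GENCODE transcripts.

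The members, the gene lists, the alternatives and the mice left out were chosen with earlier results of these data known. All members are named, with genes of other lists at an adjusted p under 0.05 (up to 4 a list by smallest p) and the genes of like pattern. Gm3776, Mgst3, Gsto1 and Alb were named after their values were seen. The fit was repeated with quantile normalization, with the TPM left unscaled, with array weights, with a replicate block, with another pseudocount (0.1) or filter (none, or 5), with the most abundant transcript, with all 25 mice in 1 fit, with each mouse or the marker-rich mice left out, and with sums over near copies.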

Additional observations from a re-analysis of the deposited data

Results flagged for a closer look

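In 50 searches of 1 member in 1 group of 5 mice, 2 mice stood far from the rest of their group, about what chance gives at 1 in 20. Gstm2 in WT CNTL replicate 1 was 98.8 scaled TPM against 89.1 in the nearest mouse, a gap of 0.716 of the group's range. Gstp1 in GPx4+/- CNTL replicate 5 was 83.7 against 93.5 in the nearest mouse, a gap of 0.826 of the range.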

How the results depend on the processing

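Over 37 alternatives, the log2 fold change of Gsta1 with HFHS over both genotypes lay between 0.74 and 0.97 in the 32 that bear on it, with adjusted p from 0.00309 to 0.0258 in limma. Without 1 mouse at a time, 1 to 2 members were called over both genotypes and 0 to 1 in GPx4+/-, the additional calls being Gsta2 (without GPx4+/- CNTL replicate 2 or WT HFHS replicate 1), Gsta4 (WT HFHS replicate 4) and Gstp1 (WT HFHS replicate 5). Over both genotypes 2 members were called with TPM as deposited (Gsta1, Gstk1), quantile normalization (Gsta1, Gstp1), array weights and without the 3 mice with raised hepatocyte genes (Gsta1, Gsta2 in both), and 3 without the 5 mice with atrial genes. Of all genes 5.95%, 8.73%, 10.5%, 5.71% and 7.36% were called in these 5 settings. In GPx4+/- 1 was called with TPM as deposited and quantile normalization (Gstp1 in both) and with the most abundant transcript (Gsta1), where 3.53%, 3.04% and 2.79% of all genes were called, and in WT 1 with array weights (Gsta1), where 3.38% of all genes were called in place of 1.18%. Of 2368 values of members under alternatives 158 changed sign, the largest main value among them being 0.31 in size, and none of these was called. Among reported values the sign changed with TPM as deposited for Gstm2 over both genotypes (-0.0463), the difference of the diet effect for Gsta1 (-0.077) and Gsta4 (-0.0412) and carnosine for Gsta1 (-0.0461). It changed with quantile normalization for Gstm2 (-0.0111), with array weights for Gsta1 between genotypes on HFHS (-0.0566) and for the difference of the diet effect in Gsta1 (-0.31) and Gsta4 (-0.0507). For Gsta1 between genotypes over both diets it changed with the most abundant transcript (-0.0837), near-copy sums (-0.10) and without the atrial mice (-0.001). Mgst1 over both genotypes was 0.0363 without the 3 and 0.0652 without the 5 mice, and Gstk1 with carnosine -0.0105 without the 5.

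Without 1 mouse at a time the ranges that crossed 0 were -0.0502 to 0.0501 for Gstm2 and -0.0604 to 0.0426 for Mgst1 over both genotypes, -0.0655 to 0.53 for Gsta3 and -0.0878 to 0.0085 for Gstm1 in GPx4+/-, and -0.10 to 0.23 for Gsta1 between genotypes on HFHS and -0.0235 to 0.15 over both diets. They were -0.16 to 0.18 for Gsta1 and -0.0407 to 0.14 for Gsta4 in the difference of the diet effect, and -0.16 to 0.17 for Gsta1 and -0.0105 to 0.14 for Gstk1 with carnosine. Among other transferases 0 genes were called without a filter, with TPM as deposited, with the most abundant transcript and without the 3 or the 5 mice. For export and mercapturate steps 1 was called without a filter and with the most abundant transcript. Of Nrf2-driven genes 1 was called without a filter, 2 with TPM as deposited and without the 3 mice, and 2 to 6 without 1 mouse. Of all genes 2.79% were called without a filter, 5.95% with TPM as deposited, 7.19% with the most abundant transcript, 5.71% without the 3 mice, 7.36% without the 5 and 6.67% to 9.21% without 1 mouse. The cause was not tested.

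Replicate numbers do not pair the mice: correlations of same-numbered mice ran from -0.34 to 0.23 over 30 pairs. With the replicate block the members called were unchanged in number, with 1 over both genotypes (Gsta1, 0.83, adjusted p = 0.0145 in limma), and over all genes the count in WT was 68 in place of 142. TPM as deposited moved the median of all genes by -0.10 in GPx4+/-, where 8.73% in place of 65.2% of called genes were higher, and over both genotypes 19.9% in place of 56.2%. With no filter 43 genes were called in WT, 235 in GPx4+/- and 723 over both genotypes. The minimum of 5 leaves Gsta2 untested. The table holds no depth per library, so no counting error can be set beside the low values of Gsta2.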
